A study of Mus musculus with 12 samples.

Results

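Oxidative phosphorylation is carried by 5 protein complexes of the inner mitochondrial membrane, and the genes described here are the nuclear genes that encode their subunits. Members were taken by symbol: every gene column named Ndufa, Ndufb, Ndufs or Ndufv with a number, Sdha to Sdhd, Uqcr, Cox4 to Cox8 or Atp5, without pseudogene symbols, and with a mean of at least 1 CPM. CPM is the number of unique molecular identifiers (UMIs, 1 per captured transcript) of a gene per 1000000 UMIs of a library. Of 27998 gene columns, 82 matched by name and 77 reached the minimum. They comprised 33 genes of complex I, 4 of complex II, 8 of complex III, 14 of complex IV (with Ndufa4, which was first described as a complex I subunit), 15 of complex V and 3 associated proteins (Cox7a2l, Atp5s and Atp5sl).

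Single-cell RNA-seq libraries of c-Kit+ bone marrow cells, a fraction rich in hematopoietic stem and progenitor cells, came from 4 mouse genotypes at 3 time points, with 1 library for each combination. WT mice lacked Cre (Mx1-Cre-). E2-KO mice were Mx1-Cre+;Ezh2 f/f and lose Ezh2, the histone H3 lysine 27 methyltransferase, G12D mice were Mx1-Cre+;NRas G12D+/- and gain an active Nras, and G12D/E2-KO mice carried both. All 4 genotypes received pIpC, the agent that switches on Mx1-Cre. The labels put the mice at 8 to 12 weeks of age at this injection, the study's text puts them at a younger age, and in either case age rose with the time point. Bone marrow was taken after 2 weeks for T1, after 2 months for T2 and after 4 months for T3. WT thus differed from every mutant also in the Cre transgene, and this difference cannot be told apart from what the mutants share. Mx1-Cre is active in blood cells and also in other interferon-responsive tissues.

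In every cell, complex I (NADH dehydrogenase) and complex II (succinate dehydrogenase) pass electrons to complex III (the cytochrome bc1 complex), which hands them through cytochrome c to complex IV (cytochrome c oxidase). Complexes I, III and IV pump protons, and complex V (ATP synthase) uses the gradient to make ATP. The mitochondrial genome encodes 13 core subunits of complexes I, III, IV and V (the mt- genes), all other subunits are imported, and complex II is wholly nuclear. Hematopoietic stem cells are known for a low reliance on oxidative phosphorylation, while their dividing progeny use it more.

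Ezh2 followed the genotype in every library: it stood at 81.7 to 132.8 CPM in the 6 libraries of WT and G12D and at 20.7 to 34.6 CPM in the 6 libraries of E2-KO and G12D/E2-KO. Of 35597 deposited cells 32701 were used, because 2896 cells of G12D T1 matched cells of G12D/E2-KO T1 and were kept only there. Of these 1494 were equal in every gene and the others passed a cosine similarity of 0.9 over 8000 genes, against at most 0.8525 between any other 2 libraries. How the tables came to share cells is not known, and with the cells as deposited the numbers of members called in the mutants over all cells were the same. The libraries held 12.6 to 23.6 × 1000000 UMIs. The E2-KO T3 library stood apart with the lowest median of 3780.5 UMIs per cell and the highest share of hemoglobin UMIs, 9.31% against 0.892 to 4.23% elsewhere. Xist was at 1296 to 1357 CPM in WT T3, E2-KO T3 and G12D T3 and at 0.608 CPM or less in the other 9 libraries.

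Since each molecule was counted once at its 3′ end, CPM levels of different genes can be set side by side without division by length. The 77 genes together made up 27812 to 35174 CPM of a library. Over the 12 libraries complex IV took 31.9% of this sum, complex I 26.5%, complex V 26.4%, complex III 12.4% and complex II 1.48%. The leading members were Cox8a with a mean of 1378 CPM and Cox4i1 with 1337 CPM, both structural subunits of complex IV, followed within complex V by Atp5l (938.9 CPM), which helps ATP synthase to form dimers, and Atp5g1 (930.8 CPM), which encodes subunit c of the rotor. Complex III was led by Uqcrq (799.8 CPM) and Uqcrh (767.9 CPM), small accessory subunits, and complex I by Ndufa2 (602.2 CPM) and Ndufb7 (482.9 CPM), also accessory subunits. Complex II was led by Sdhb, its iron-sulfur subunit, and Sdhd, a membrane anchor, at 146.2 and 145.9 CPM.

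The minimum of 1 CPM fell between Cox4i2 at 0.761 CPM, left out, and Cox7a1 at 1.11 CPM, kept. The other genes left out were Ndufa4l2 (0.429 CPM), Cox8c (0.0132 CPM), Cox7b2 (0.00540 CPM) and Cox8b, for which no UMI was counted. These 5 are alternative forms of subunits known mainly from other tissues or from hypoxia.

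The start sites of these genes can be viewed next to their levels, because nuclear respiratory genes are known targets of NRF1, of the ETS factor GABP and of YY1. RefSeq promoter windows (GRCm38.p6, 250 bases before to 50 after the start) matched 62 of the 77 members in 67 windows. The NRF1 core CGCANGCG, searched on both strands, was present in 41.8% of these windows and in 8.21% of all 32851 windows, the ETS core CCGGAAG in 23.9% against 8.86%, and the YY1 core ATGGCGG in 16.4% against 4.05%. At least 1 of the 3 was in 64.2% of member windows against 18.2% of all windows. Member windows also held more CG pairs, with a median of 19 against 7, and all 3 cores contain CG. No 2 matches overlap in the windows shown here, and a match is a string of letters, not a site shown to be bound. No window matched 15 members, Uqcrq among them. The windows of 5 members described below are given 5′ to 3′ with every match in capitals: Cox8a as the member with the highest level, Sdha and Sdhd as complex II subunits with different motifs, Ndufs3 as the member lower in G12D/E2-KO, and Atp5g1 as a strongly class-dependent member without a match.
Cox8a, chr19:7217567-7217866, minus strand, 2 ETS cores: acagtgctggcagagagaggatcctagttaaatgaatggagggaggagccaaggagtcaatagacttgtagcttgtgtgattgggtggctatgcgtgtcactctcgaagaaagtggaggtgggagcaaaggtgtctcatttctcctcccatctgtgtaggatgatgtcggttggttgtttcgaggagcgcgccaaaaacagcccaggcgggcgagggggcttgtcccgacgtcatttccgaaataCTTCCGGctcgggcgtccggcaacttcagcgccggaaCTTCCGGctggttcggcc
Sdha, chr13:74350191-74350490, minus strand, 3 NRF1 cores: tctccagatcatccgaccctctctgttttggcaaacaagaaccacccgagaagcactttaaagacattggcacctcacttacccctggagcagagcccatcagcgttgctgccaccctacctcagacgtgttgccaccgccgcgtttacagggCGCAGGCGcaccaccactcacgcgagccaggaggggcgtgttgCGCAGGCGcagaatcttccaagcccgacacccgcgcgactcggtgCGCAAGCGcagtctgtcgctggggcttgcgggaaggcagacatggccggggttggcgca
Sdhd, chr9:50603800-50604099, minus strand, 1 NRF1 and 1 ETS core: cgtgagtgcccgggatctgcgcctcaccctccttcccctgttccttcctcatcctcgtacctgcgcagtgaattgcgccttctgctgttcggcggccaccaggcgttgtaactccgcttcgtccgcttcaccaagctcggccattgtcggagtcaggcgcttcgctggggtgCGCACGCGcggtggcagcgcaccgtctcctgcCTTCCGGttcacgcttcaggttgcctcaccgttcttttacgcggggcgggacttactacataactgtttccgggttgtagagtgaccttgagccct
Ndufs3, chr2:90904672-90904971, minus strand, 2 ETS cores: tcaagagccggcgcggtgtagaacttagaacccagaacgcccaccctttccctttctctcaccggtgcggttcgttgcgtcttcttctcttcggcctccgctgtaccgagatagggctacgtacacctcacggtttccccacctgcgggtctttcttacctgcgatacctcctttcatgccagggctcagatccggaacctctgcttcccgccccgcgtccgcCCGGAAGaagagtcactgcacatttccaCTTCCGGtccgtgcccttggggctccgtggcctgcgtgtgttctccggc
Atp5g1, chr11:96075582-96075881, minus strand, no match: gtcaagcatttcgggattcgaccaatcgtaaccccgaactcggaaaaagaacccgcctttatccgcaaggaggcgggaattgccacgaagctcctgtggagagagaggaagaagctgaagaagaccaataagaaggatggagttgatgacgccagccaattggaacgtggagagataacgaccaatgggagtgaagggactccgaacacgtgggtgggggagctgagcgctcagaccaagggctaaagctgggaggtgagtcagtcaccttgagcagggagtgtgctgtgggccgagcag

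The first question was how these genes differ along hematopoietic differentiation. Cells were assigned to 13 classes by lists of marker genes that hold no member and no mt- gene, each class being called by the name of its list (HSC/MPP stands for HSC/MPP-like cells, and so on). Between 7.95% and 16.3% of the cells of a library received no class. A minimum of 20 cells in each library left 7 classes for testing. These were HSC/MPP (stem and multipotent progenitors, 1525 cells), GMP/early GN (granulocyte-monocyte progenitors and early granulocytes, 6311), late GN (late granulocytes, 8465), ProMo (promonocytes, 1979), MEP (megakaryocyte-erythroid progenitors, 1303), EryP/early Ery (erythroid progenitors and early erythroblasts, 4073) and late Ery (late erythroblasts, 2681). Counts were summed per library and class, and 5 steps between classes were tested with edgeR's quasi-likelihood test with the library as a block over 10258 genes, with Benjamini-Hochberg adjustment and a threshold of 0.05. Of the members 76 were tested, and Cox7a1 was too low. Changes of a step are on the TMM scale of edgeR and not in CPM, and rises and falls refer to that scale.

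The members together were lower in stem-like cells than in GMP/early GN, ProMo and EryP/early Ery, but not lower than in MEP. Their summed level was 26404 ± 2388 CPM in HSC/MPP (mean ± SD, n = 12 libraries, as for the following classes) and 26585 ± 1770 CPM in MEP, against 33837 ± 3029 CPM in GMP/early GN, 37554 ± 2478 CPM in ProMo and 37053 ± 3025 CPM in EryP/early Ery. These differences exceeded the SD of each class, while HSC/MPP and MEP differed by less than either SD. In late GN the sum was 20046 ± 1055 CPM and in late Ery 16631 ± 2230 CPM. In these last classes a few genes fill the libraries: the late GN markers took 42.7 ± 3.94% of late GN UMIs and hemoglobin 49.0 ± 6.39% of late Ery UMIs. With hemoglobin, mt- and ribosomal protein genes left out of the denominator, the sum was 22056 ± 1477 CPM in late GN and 43284 ± 5361 CPM in late Ery, against 43508 ± 4057 CPM in HSC/MPP. With the late GN markers alone left out, a denominator chosen after the data had been seen, the sum was 35048 ± 2030 CPM in late GN and 26536 ± 2359 CPM in HSC/MPP. With both groups left out it was 41558 ± 2426 CPM in late GN, 44010 ± 5291 CPM in late Ery and 43864 ± 3965 CPM in HSC/MPP. Their low places relative to HSC/MPP thus both depended on what the denominator holds. With both groups left out, GMP/early GN had 53921.5 ± 3837 CPM and EryP/early Ery 61199 ± 3897 CPM. Late GN and late Ery thus stayed below the class before them on that denominator. With the late GN markers alone left out, GMP/early GN had 35187.5 ± 3329 CPM, close to late GN. Counted per cell, 90.95 ± 15.4 member UMIs were found in late GN, 73.8 ± 14.5 in late Ery, 139.9 ± 26.9 in HSC/MPP and 467.1 ± 90.8 in EryP/early Ery.

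**Figure D1:**
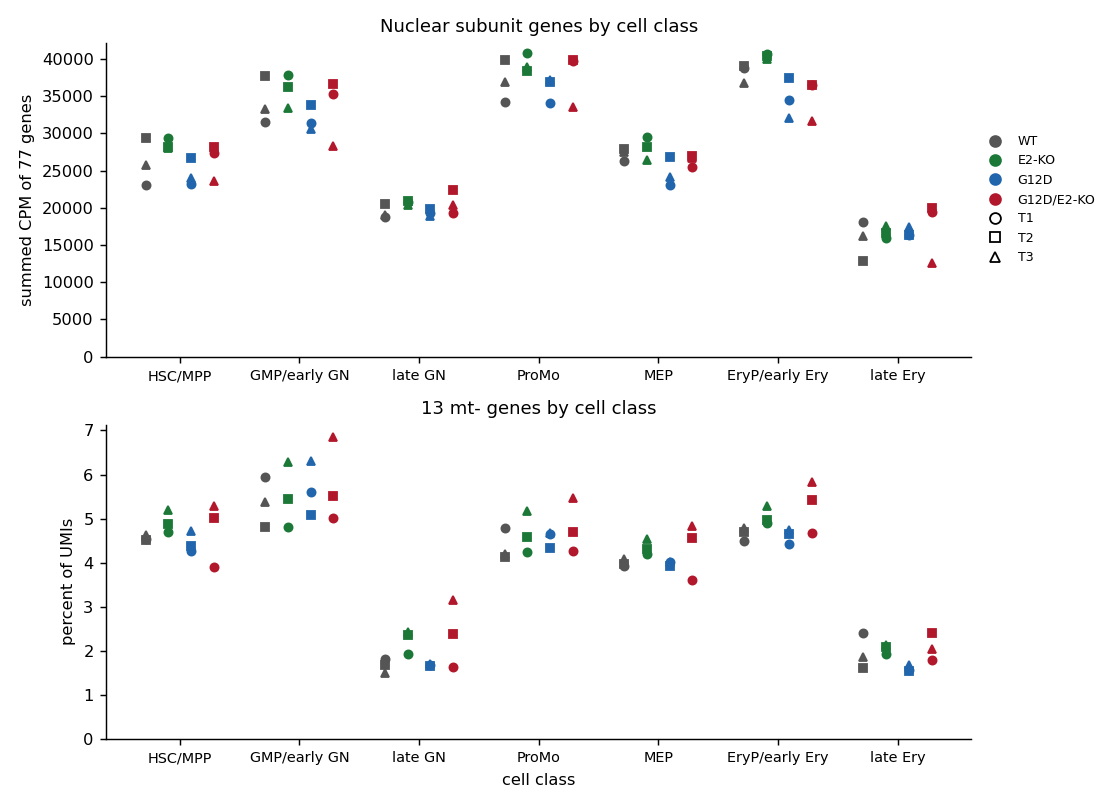
Summed CPM of the 77 nuclear subunit genes (top) and percent of UMIs from the 13 mt- genes (bottom) in 7 cell classes. Each point is 1 library, with the genotype by colour and the time point by shape. On this denominator of all UMIs the nuclear sum is lowest in late GN (mean 20046 CPM) and late Ery (16631 CPM), and the mt- share is lowest in the same classes.

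From HSC/MPP to GMP/early GN, 61 of the 76 members rose and 3 fell, with a median log2 change of 0.55, while of all genes 31.1% rose and 32.0% fell with a median of -0.01. Complex I gave 31 of 33 genes higher and none lower, complex III 5 of 8 higher, complex IV 11 of 13, complex V 12 of 15 and complex II 2 of 4. Ndufv3, a small subunit next to the NADH site of complex I, rose by 1.25 (SE 0.06, adjusted p = 6.90e-41), and Ndufa1, which complex I needs for assembly, by 1.21 (SE 0.07, adjusted p = 2.69e-34). The 3 that fell were Cox6a2, Cox7a2l, a factor that joins complexes III and IV into supercomplexes (-0.70, SE 0.07), and Atp5sl, now known as a complex I assembly factor (-0.73, SE 0.14). With DESeq2's size factors (RLE) in place of TMM the median of all genes shifted by -0.10, and 58 members rose and 7 fell. The split of all calls moved from 49.3% to 41.2% higher. Of the members called, 95.3% were higher under TMM and 89.2% under RLE.

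From HSC/MPP to EryP/early Ery, 67 members rose and 4 fell, with a median of 0.62, against 36.0% higher and 37.1% lower of all genes with a median of -0.02. All 4 subunits of complex II rose, and so did 30 of 33 genes of complex I, 7 of 8 of complex III, 11 of 13 of complex IV and 14 of 15 of complex V. The largest rise was that of Cox6b2, the testis form of a complex IV subunit that clamps the dimer, at 2.49 (SE 0.11, adjusted p = 1.79e-33). Atp5g1 rose by 1.63 (SE 0.06, adjusted p = 3.10e-51) and Sdhd by 1.16 (SE 0.07, adjusted p = 7.80e-33). Under RLE the median of all genes shifted by -0.19 and the split of all calls moved from 49.3% to 37.5% higher, while of the members called 94.4% were higher under TMM and 88.4% under RLE (61 higher and 8 lower). In both steps out of HSC/MPP 59 of the 76 members were higher. The share of all genes higher in both steps is not given here.

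The later steps divided the members. From GMP/early GN to late GN 22 rose and 38 fell, with a median of -0.12 (all genes 37.5% higher, 41.5% lower, median -0.05). Complex I was split into 16 higher and 14 lower, whereas in complex III none rose and 6 of 8 fell, and in complex V 3 rose and 8 fell. Ndufb7 rose by 0.90 (SE 0.05, adjusted p = 9.08e-34) and Ndufv3 by 0.90 (SE 0.05), while Atp5g1 changed by -1.78 (SE 0.06, adjusted p = 1.10e-55) and Atp5sl by -1.77 (SE 0.16). In WT libraries alone 25 fell instead of 38. From EryP/early Ery to late Ery 23 rose and 34 fell, with a median of -0.09 (all genes 34.8% higher, 36.6% lower, median -0.04). Here the rotor subunit c genes fell together: Atp5g2 by -1.64 (SE 0.06), Atp5g1 by -1.42 (SE 0.06) and Atp5g3 by -0.34 (SE 0.06). Atp5sl changed by -2.15 (SE 0.32), and of complex II 3 of 4 subunits fell, Sdhd with -1.24 (SE 0.08). A wider marker margin of 0.5 left 15 higher in place of 23, as did WT libraries alone. WT alone holds fewer libraries, and the shares of all genes called under these alternatives are not given here.

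On the TMM scale of the test, 22 members fell in both last steps, 12 rose in both and 11 moved in opposite directions. The shares of all genes with these joint patterns are not given here. The counts thus do not show a pattern particular to the members. CPM could run the other way. Cox6a1, 1 of the 12, went in pooled cells from 910.8 CPM in GMP/early GN to 673.4 CPM in late GN. It also went from 1183 CPM in EryP/early Ery to 754.3 CPM in late Ery. By TMM, Ndufa1, Ndufa8, Ndufs5, Ndufv3 and Sdhb were higher in late GN and lower in late Ery. The reverse held for Atp5b (the catalytic beta subunit of ATP synthase), Atp5o, Atp5s, Ndufa4, Ndufv1 and Uqcrh. Sdhb thus parted from its complex II partners in late granulocytes, with a rise of 0.47 (SE 0.06) beside changes of -0.29, -0.54 and -0.55 for Sdhc, Sdhd and Sdha, which all fell.

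From GMP/early GN to ProMo changes were small: 34 members rose and 9 fell, with a median of 0.10 (all genes 19.1% higher, 20.5% lower, median -0.00). Of complex V 10 of 15 genes rose and none fell, and of complex II 3 of 4 rose, with Sdhb at 0.74 (SE 0.06, adjusted p = 2.88e-20). Without the library block 18 rose and 5 fell, and in WT libraries alone 16 rose and 3 fell. The shares of all genes called under these settings are not given here.

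**Figure D2:**
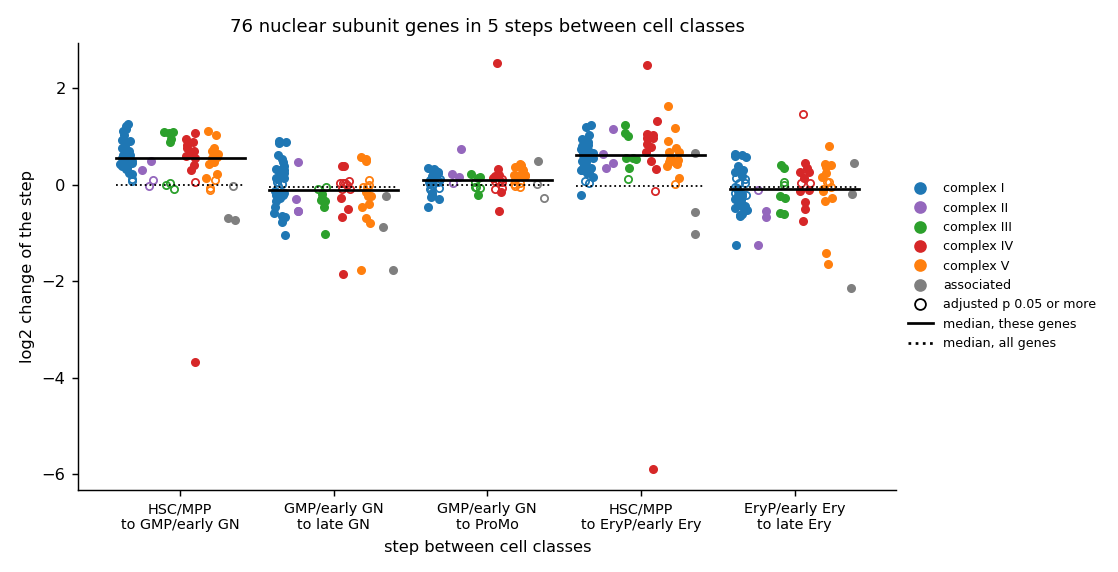
Log2 change of 76 nuclear subunit genes in 5 steps between cell classes, by complex. Filled points passed an adjusted p of 0.05, solid lines are the medians of these genes and dotted lines those of all 10258 genes tested. In the steps out of HSC/MPP the members' medians are 0.55 and 0.62, and Cox6a2 lies far below at -3.68 and -5.90.

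The mt- genes and the nuclear members took the same direction in most steps but not in the same measure. In late GN 12 of 13 mt- genes fell, with a median of -1.18, beside the members' median of -0.12, and in late Ery 12 of 13 fell with a median of -0.61. From GMP/early GN to ProMo 9 mt- genes fell and none rose, while the members rose in 34 cases. The mt- share of UMIs was 1.98 ± 0.49% in late GN and 1.92 ± 0.30% in late Ery, against 4.16 ± 0.34% in MEP to 5.59 ± 0.65% in GMP/early GN (SD, n = 12). The ratio of nuclear member UMIs to mt- UMIs had its lowest mean in HSC/MPP (0.569 ± 0.070) and its highest in late GN (1.05 ± 0.187). GMP/early GN was below HSC/MPP in E2-KO T3 (0.532 against 0.539), G12D T3 (0.484 against 0.511) and G12D/E2-KO T3 (0.412 against 0.445). It was above HSC/MPP in every other library. The authors had removed cells with over 10% mt- UMIs, which bounds the mt- values from above.

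Other mitochondrial lists are given beside the members, with no test of the difference between lists. In the step to late GN the 42 assembly factors gave 6 higher and 28 lower with a median of -0.56, the 17 genes of the TCA cycle 2 higher and 15 lower (-0.58), and 76 genes of mitochondrial ribosomal proteins 9 higher and 54 lower (-0.53). In the step to late Ery the assembly factors gave 3 higher and 34 lower (-1.06) and the mitochondrial ribosomal proteins 4 higher and 66 lower (-0.79). The members' medians of -0.12 and -0.09 were closer to those of all genes in both steps. Glycolysis genes went apart between lineages, with 13 of 17 higher from HSC/MPP to GMP/early GN and 13 of 17 lower from HSC/MPP to EryP/early Ery.

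Members differed widely in their range over classes, and some of those with a wide range are tissue forms of a subunit. The median range of a member's mean CPM over the 7 classes was 1.49 on the log2 scale. The tissue forms Cox6a2 and Cox7a1 spanned 6.82 and 5.93, Atp5sl 4.59, Atp5g1 3.15 and the tissue form Cox6b2 3.08, and those of Cox6a2, Cox7a1 and Atp5sl rest on lowest class means of 0.382, 0.0420 and 0.979 CPM.

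Cox6a2, the heart and muscle form of a complex IV subunit, had its highest mean among the 7 classes in HSC/MPP, while in 3 of 12 libraries (E2-KO T2, G12D T1 and G12D/E2-KO T3) it was higher in ProMo. In HSC/MPP it ranged from 0 to 70.2 CPM over libraries with a mean of 43.0 ± 23.8 CPM, beside 17.8 ± 14.96 CPM in ProMo, 2.85 ± 1.82 CPM in GMP/early GN and 0.382 to 1.17 CPM in the other 4 classes. The library without any Cox6a2 UMI in HSC/MPP was G12D/E2-KO T3, where 0 of 595129 UMIs allow a level of up to 5.04 CPM (3 counts, counting error only). From HSC/MPP it changed by -3.68 to GMP/early GN (SE 0.22, adjusted p = 1.34e-25) and by -5.90 to EryP/early Ery (SE 0.28, adjusted p = 4.68e-32), and by 2.52 from GMP/early GN to ProMo (SE 0.23, adjusted p = 2.07e-16). Pooled over libraries, the small DC class (dendritic-like, 129 cells) held 164.6 CPM (95 UMIs, exact 95% Poisson interval 133 to 201, counting error only). Of these cells 67 came from G12D/E2-KO T1 and 21 from G12D/E2-KO T2, with 1 to 7 in each other library. The 91 DC cells of G12D/E2-KO held 38.6 CPM (17 UMIs, 22.5 to 61.9) and the 38 cells of the other genotypes 568.7 CPM (78 UMIs, 449.5 to 709.7), a division made after the data had been seen and not tested. The T/NK lymphoid class (97 cells, 30 of them from G12D/E2-KO T2) held 56.0 CPM (17 UMIs, 32.6 to 89.7). In HSC/MPP the 7 DC markers summed to 15.1 to 184.6 CPM, 2 to 4 of them with a UMI. Of these Cd74 (5.04 to 112.2 CPM) and H2-Aa (6.72 to 62.5 CPM), genes of antigen presentation that other cells use too, had UMIs in all 12 libraries, Ccr9 reached 48.8 CPM, Siglech 6.05 CPM with 0 in 6 libraries, and Klk1, Cd209a and Cd209d were at 0 in all 12. In ProMo the DC list summed to 2.05 to 976.0 CPM, with Cd74 at 0 to 750.2 CPM and H2-Aa at 1.02 to 231.9 CPM, and with Klk1 and Cd209d again at 0 throughout. The library with the most Cox6a2 in ProMo, G12D T1 with 52.4 CPM, held 178 of the 426 UMIs. The part of dendritic-like cells in these values was not tested. The partner form Cox6a1 lay at 533.6 ± 116.9 CPM in HSC/MPP, far above Cox6a2. Cox6a2 also overlaps Itgad on the opposite strand.

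Cox6b2 was highest in EryP/early Ery with 482.3 ± 86.4 CPM, followed by MEP with 208.2 ± 30.7 CPM and late Ery with 156.0 ± 43.8 CPM, against 96.5 ± 19.8 CPM in HSC/MPP and 56.9 ± 17.5 CPM in late GN. The ranges over libraries of MEP (177.1 to 258.6 CPM) and late Ery (83.4 to 229.8 CPM) overlapped. The lowest EryP/early Ery library had 326.7 CPM, above the highest value of 258.6 CPM in MEP and of 132.0 CPM in GMP/early GN. The common form Cox6b1 remained higher in every class, for example 959.4 ± 92.7 CPM in EryP/early Ery. Pooled baso/mast-like cells (282 cells) held 209.4 CPM of Cox6b2 (325 UMIs, 187.2 to 233.4), close to MEP. Cox7a1, the muscle form of another complex IV subunit, was at most 2.57 CPM on average in the 7 classes and 5.77 CPM (50 UMIs, 4.28 to 7.60) in pooled B lymphoid cells.

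The 3 genes of ATP synthase subunit c encode almost the same mature protein behind different import signals, and they were used in different amounts. In HSC/MPP Atp5g2 led with 976.4 ± 124.1 CPM before Atp5g1 with 578.5 ± 96.8 CPM and Atp5g3 with 268.0 ± 52.2 CPM. In EryP/early Ery the order changed, with Atp5g1 at 1598 ± 194.1 CPM, Atp5g2 at 958.8 ± 75.3 CPM and Atp5g3 at 543.1 ± 79.7 CPM. In late GN Atp5g1 stood at 179.5 ± 20.9 CPM and Atp5g2 at 301.3 ± 36.0 CPM, and their ranges over libraries did not overlap (149.7 to 214.9 and 248.99 to 368.2 CPM). The order of these genes may be affected by reads that fit more than 1 of them.

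**Figure D3:**
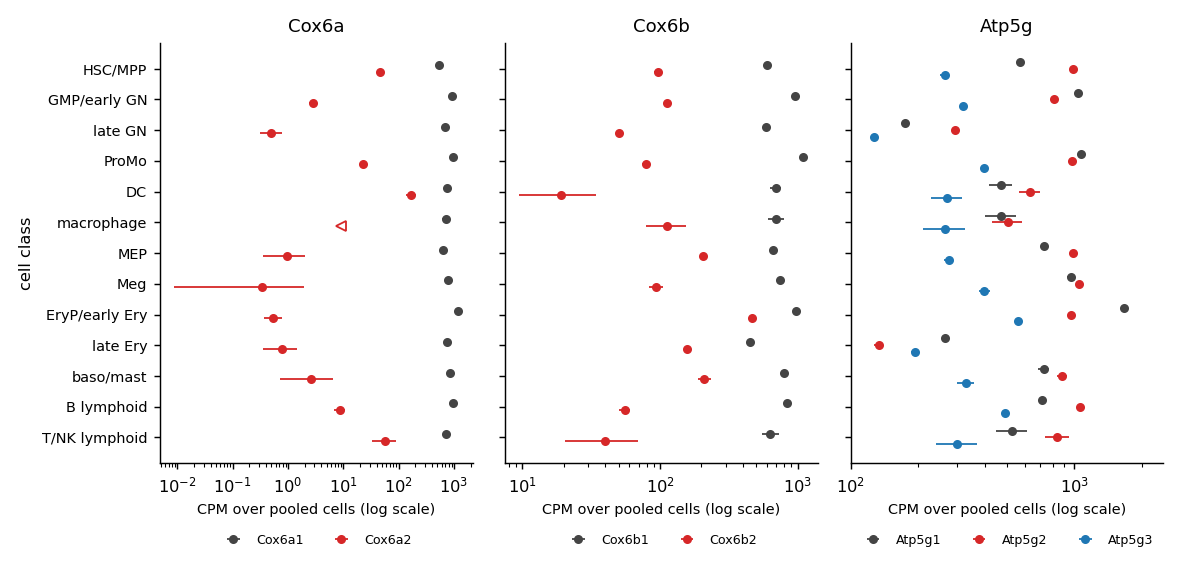
CPM over the pooled cells of 13 cell classes, on a log scale, for 3 families with several forms. Bars are exact 95% Poisson intervals (counting error only) and the open triangle is the level of 3 counts, given where no UMI was found. Cox6a2 reaches 164.6 CPM in DC, where 91 of 129 cells are of G12D/E2-KO, and Cox6b2 464.8 CPM in EryP/early Ery, while Cox6a1 and Cox6b1 stay above them in every class.

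The second question was how loss of Ezh2, active Nras or both changed these genes. The 3 time points stood in as the replicates of a genotype, so p-values measure the spread between these libraries, and which animals gave the cells is not stated. Sums over all cells do not by themselves separate a change in class shares from a change within classes, so values by class are also given. The summed member level at T1, T2 and T3 was 30706, 31931 and 30041 CPM for WT and 35128, 35174 and 31920 CPM for E2-KO. With active Nras it was 27812, 31014 and 28683 CPM for G12D alone and 29262, 32451 and 27952 CPM for G12D/E2-KO. E2-KO T1 and T2 were above every other library, E2-KO T3 lay just below WT T2, and the other mutants overlapped WT. The means were 30893 ± 959 CPM (WT), 34074 ± 1866 CPM (E2-KO), 29170 ± 1656 CPM (G12D) and 29888 ± 2314 CPM (G12D/E2-KO), each ± SD with n = 3. Late GN, a class with few member UMIs, made up 32.2 ± 4.41% of all cells in WT and 12.7 ± 1.99% in E2-KO. With the 7 classes given equal weight, WT had 28268 ± 1205 CPM and E2-KO 29947 ± 728 CPM. On a denominator without hemoglobin, mt- and ribosomal protein genes, the log2 difference of E2-KO from WT was 0.27 in place of 0.14. The sums themselves were not tested. By complex, the E2-KO mean over the WT mean was 1.24 for complex III, 1.12 for complex IV, 1.06 for complex I, 1.08 for complex V and 0.996 for complex II. The complex III mean was 3559 CPM in WT and 4426 CPM in E2-KO. Of this Uqcrq alone held 589.4 CPM in WT and 975.2 CPM in E2-KO.

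**Figure D4:**
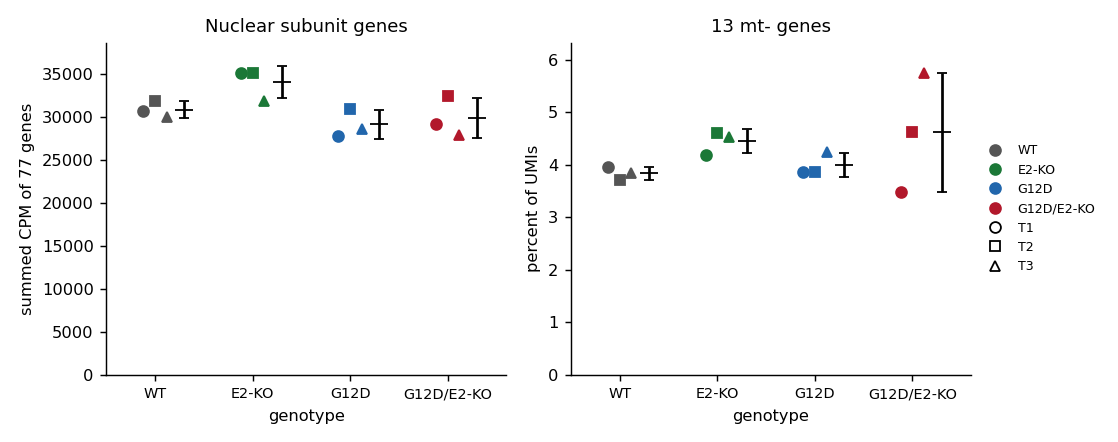
Summed CPM of the 77 nuclear subunit genes (left) and percent of UMIs from the 13 mt- genes (right) in each library, by genotype. Shapes are time points, and bars to the right of each group are the mean ± SD of 3 libraries. E2-KO has the highest nuclear mean, 34074 CPM, and G12D/E2-KO the widest spread of the mt- share, from 3.49 to 5.75%.

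Across all cells the model (edgeR quasi-likelihood test, genotype and time point over 12 libraries, 13143 genes tested, Benjamini-Hochberg adjustment) called few members. In E2-KO against WT 1 of 77 members was higher and none lower, against 1.36% of all genes higher and 0.289% lower. The members' median log2 change was 0.08 with 51 of 77 positive, beside a median of 0.00 over all genes. Not above 0 were 33.8% of members and 49.3% of all genes. At an unadjusted p under 0.05 there were 3.90% of members, against 16.2% of all genes. These members, 3 higher, became 1 without WT T3, E2-KO T1 or E2-KO T3. They were 8 higher and 2 lower without E2-KO T2, where 10.4% and 8.61% of all genes were. Without G12D/E2-KO T3 8 were higher, beside 9.96% of all genes. In G12D none was called by edgeR (0.107% of all genes in either direction, 0 members by DESeq2). At an unadjusted p under 0.05 there were 6 members, 7.79%, against 11.8% of all genes, and the median was -0.08 with 22 positive. These 6 became 1 to 3 without any 1 of G12D T1, G12D T3, WT T1, WT T3, E2-KO T1 or G12D/E2-KO T1. They were 4 higher and 4 lower without G12D T2, and 3 higher and 5 lower without G12D/E2-KO T3. In G12D/E2-KO 1 member was higher and 1 lower (all genes 3.72% higher, 1.99% lower), with a median of -0.16 against 0.01 over all genes. There 63 of 77 members, 81.8%, were below 0 in fold change, and 28.6% were lower at an unadjusted p under 0.05, while 48.8% of all genes were below 0 and 12.1% lower at that p. These 22 members became 3 without WT T3, where 5.998% of all genes were lower, and 10 without G12D/E2-KO T2, where 7.28% were. The median became -0.05 without G12D/E2-KO T3 and -0.24 without G12D/E2-KO T1. WT T3 carried Xist (1296 CPM) and G12D/E2-KO T3 did not (0.130 CPM), so that these genotypes also differed in sex at T3. Late GN made up 24.2 ± 12.6% of G12D/E2-KO cells (13.3 to 38.1%), and with the 7 classes given equal weight the summed level was 28117 ± 2543 CPM, against 28268 ± 1205 CPM in WT. The part of cell composition in the change was not tested. For G12D/E2-KO, DESeq2 called 8 members in place of 2, adding Sdhd, Sdhb, Ndufa9, Atp5g1, Ndufa12 and Atp5f1 as lower (by DESeq2 5.92% of all genes were higher and 4.14% lower), while 1 was called with genotype alone in the model and none with only WT and G12D/E2-KO in the fit. Leaving out E2-KO T3 gave 6. At an unadjusted p under 0.05 that fit had 23 members lower in place of 22. Of all genes 14.2% were lower in it, in place of 12.1%. The shares of all genes past the adjustment are not given here for this fit, for genotype alone or for only the 2 genotypes.

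The member called in both Ezh2-deleted genotypes was Uqcrq, a small subunit of complex III also known as its ubiquinone-binding protein (mm10 chr11:53427922-53430831, minus strand, ENSMUSG00000044894). At T1, T2 and T3 it measured 546.4, 650.5 and 571.4 CPM in WT against 1008, 1016 and 901.2 CPM in E2-KO. The values were 715.9, 757.1 and 813.2 CPM for G12D, and 788.5, 959.4 and 869.0 CPM for G12D/E2-KO. The 3 WT libraries were the lowest of the 12, and E2-KO did not overlap G12D. The change from WT was 0.71 for E2-KO (SE 0.12, adjusted p = 0.0146), 0.51 for G12D/E2-KO (SE 0.12, adjusted p = 0.0376) and 0.41 for G12D (SE 0.12, adjusted p = 0.288). The interaction, the G12D/E2-KO change less the sum of the single changes, was -0.61 (SE 0.17, adjusted p = 0.606), and no member was called for it (0.0913% of all genes in either direction, 1 member, Uqcrq, at an unadjusted p under 0.05, where 3.73% of all genes were, 0 by DESeq2). The E2-KO call was lost without WT T1, WT T2, WT T3, E2-KO T1 or E2-KO T3 (adjusted p 0.0517 to 0.0926, log2 change 0.63 to 0.77). The G12D/E2-KO call was lost without any 1 of the 3 WT libraries, E2-KO T1 or T2, G12D T1, or G12D/E2-KO T1 or T2 (adjusted p 0.0530 to 0.170), and with only the 2 genotypes in the fit (0.107).

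The rise of Uqcrq was seen within each class. In E2-KO it passed the threshold in 7 of 7 classes, with log2 changes from 0.56 (SE 0.13) in late GN to 0.92 (SE 0.18) in HSC/MPP. In HSC/MPP it stood at 276.4, 459.5 and 371.4 CPM in WT, against 634.4, 665.5 and 684.1 CPM in E2-KO. The E2-KO libraries exceeded all WT libraries in 7 of 7 classes, those of G12D/E2-KO in 6 and those of G12D in 5. No other member was called in E2-KO within a class, where 0.272% (HSC/MPP), 1.30% (GMP/early GN), 2.07% (late GN), 0.539% (ProMo), 0.435% (MEP), 2.74% (EryP/early Ery) and 1.99% (late Ery) of all genes were. Left-out libraries again took calls away: 1 class remained without WT T1, 2 without WT T3 or E2-KO T1, and 3 without WT T2 or E2-KO T3.

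Uqcrq was also viewed beside the genes around it. Of 8 genes tested within 200 kb, where 19 are annotated, none was called in E2-KO or G12D and 1, Gm9945, was lower in G12D/E2-KO, and none overlaps Uqcrq. The nearest of these 8, Leap2, had 0.302 CPM on average and log2 changes from WT of 3.16 (E2-KO), 2.72 (G12D) and 2.32 (G12D/E2-KO; adjusted p = 0.0672, 0.288 and 0.103). Lyrm7, which encodes an assembly factor of complex III and is on the list of assembly factors, lies 1.40 Mb from Uqcrq on the same chromosome. It had 2.97 to 4.16 CPM in the 3 WT libraries and 10.8 to 21.2 CPM in the 9 mutant libraries, with no overlap, and was called higher in E2-KO (2.19, SE 0.23, adjusted p = 0.000918), G12D (2.10, SE 0.23, adjusted p = 0.00466) and G12D/E2-KO (2.06, SE 0.23, adjusted p = 0.00137). Lyrm7 was singled out after its values were seen. Within 2 Mb of Uqcrq 48 genes were tested, of which 1 was higher and 1 lower in E2-KO, 1 higher in G12D, and 2 higher and 3 lower in G12D/E2-KO. The cause of these levels was not tested, and what the mutants share, Cre included, cannot be told apart from their alleles by a comparison with WT.

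The member lower in G12D/E2-KO was Ndufs3, a core subunit of the arm of complex I that extends into the matrix (mm10 chr2:90894634-90904827, minus strand, ENSMUSG00000005510; its promoter window is printed above). It stood at 110.7, 110.8 and 93.1 CPM in WT (T1 to T3), against 66.6, 87.6 and 75.5 CPM in G12D/E2-KO. E2-KO held 105.1, 122.8 and 81.8 CPM, and G12D 76.9, 105.1 and 82.5 CPM. All 3 G12D/E2-KO libraries were below all WT libraries, and E2-KO and G12D overlapped both. The change was -0.52 in G12D/E2-KO (SE 0.11, adjusted p = 0.0268), -0.22 in G12D (SE 0.11, adjusted p = 0.450) and -0.06 in E2-KO (SE 0.11, adjusted p = 0.837). The call was lost without WT T1, WT T3, G12D/E2-KO T1 or G12D/E2-KO T2 (adjusted p 0.0583 to 0.174), with genotype alone in the model (0.0728) and with only the 2 genotypes (0.0730). Ndufs3 was not called within any class, where its change in G12D/E2-KO was -0.29 to -0.60. It overlaps Kbtbd4 on the opposite strand.

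**Figure D5:**
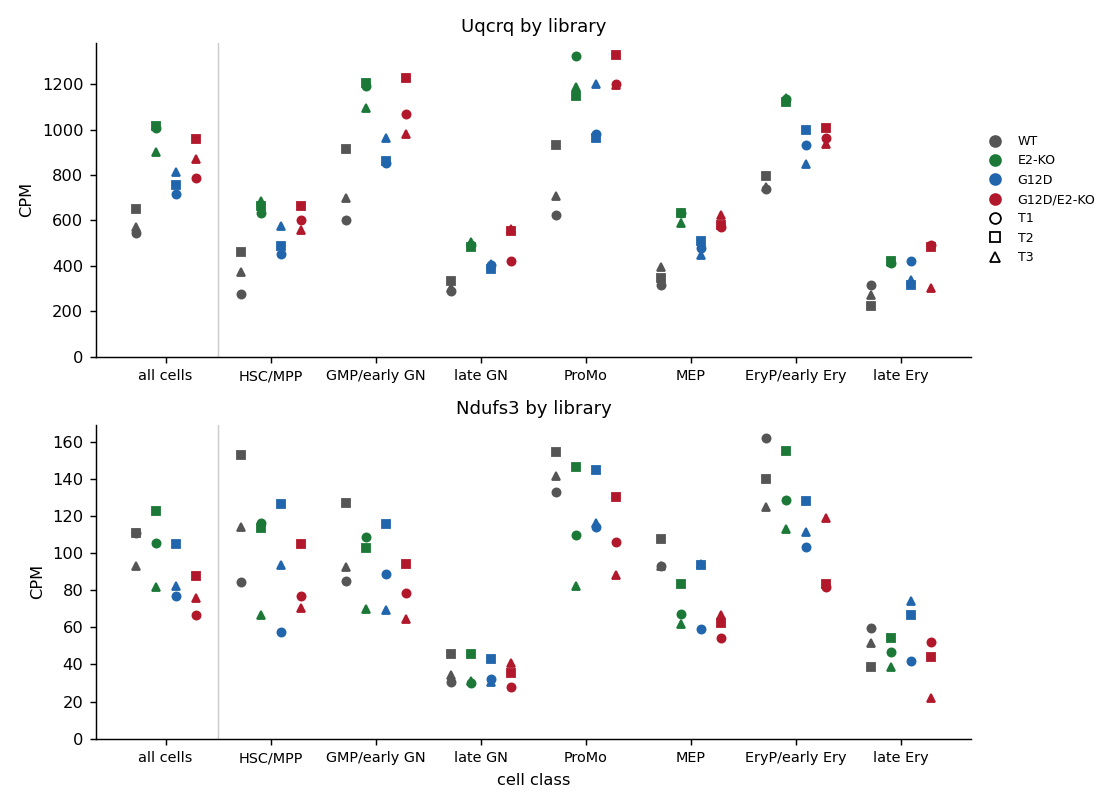
CPM of Uqcrq (top) and Ndufs3 (bottom) over all cells and in 7 cell classes. Each point is 1 library, with the genotype by colour and the time point by shape. For Uqcrq the 3 WT libraries lie lowest over all cells (546.4 to 650.5 CPM), and for Ndufs3 the G12D/E2-KO libraries (66.6 to 87.6 CPM) lie below WT (93.1 to 110.8 CPM).

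Other members with the lowest p in these comparisons did not pass the adjustment. In E2-KO these were Atp5g3 (0.31, SE 0.12, adjusted p = 0.215), Sdha, the catalytic flavoprotein of complex II (0.30, SE 0.12, adjusted p = 0.259), and Uqcrh, the hinge protein of complex III (0.30, SE 0.14, adjusted p = 0.318). E2-KO Sdha, at 96.4, 96.4 and 109.9 CPM, lay above WT at 75.0, 92.7 and 76.1 CPM. Without E2-KO T3 the change of Sdha was 0.19 and that of Uqcrh 0.14. In G12D they were Ndufa9 (-0.38, SE 0.16, adjusted p = 0.398), Atp5g1 (-0.31, SE 0.13, adjusted p = 0.403) and Ndufb9 (-0.25, SE 0.11, adjusted p = 0.404). The value of Ndufa9 was -0.23 without WT T3, and that of Atp5g1 was -0.19 without G12D T1. In G12D/E2-KO they were Sdhd (-0.48, SE 0.13, adjusted p = 0.0521) and Ndufa9, which helps to join the arms of complex I (-0.53, SE 0.16, adjusted p = 0.0681). Sdhd had 177.8, 166.6 and 148.4 CPM in WT and 113.7, 121.2 and 132.1 CPM in G12D/E2-KO, without overlap. For the interaction they were Cox5a (-0.34, SE 0.16), Atp5o (-0.35, SE 0.19) and Cox4i1 (-0.28, SE 0.16), each at an adjusted p of 1.0. Without G12D T3 these were -0.20 for Cox5a and -0.22 for Atp5o. Over all 77 members the median interaction was -0.16 with 3 positive, and 96.1% were not above 0, against 50.1% of all genes. That median was -0.10 without G12D/E2-KO T3 and -0.22 without G12D/E2-KO T1. The part of cell composition in it was not tested.

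Within classes G12D/E2-KO gave 13 calls of members against WT. Uqcrq was higher in HSC/MPP (0.78, SE 0.17), late GN (0.52, SE 0.13), ProMo (0.67, SE 0.16), MEP (0.83, SE 0.16) and EryP/early Ery (0.40, SE 0.11). In late GN Ndufa4, a complex IV subunit, fell by 0.61 (SE 0.13, adjusted p = 0.00677), Ndufa9 by 0.80 (SE 0.20, adjusted p = 0.0213) and Cox5a by 0.46 (SE 0.13, adjusted p = 0.0442). In EryP/early Ery Sdhb fell by 0.63 (SE 0.15, adjusted p = 0.0293), Ndufb10 by 0.51 (SE 0.12, adjusted p = 0.0239) and Atp5o, the stalk subunit of ATP synthase, by 0.48 (SE 0.13, adjusted p = 0.0458). Atp5sl was lower in GMP/early GN (-0.82, SE 0.21, adjusted p = 0.0340), and Cox6b2 was higher in late Ery (0.87, SE 0.20, adjusted p = 0.0187). The share of all genes called was 0.570% in HSC/MPP, 2.76% in GMP/early GN, 4.38% in late GN, 2.17% in ProMo, 0.615% in MEP, 3.72% in EryP/early Ery and 1.14% in late Ery. With 4 of 75 members called in late GN and in EryP/early Ery, and at most 1 elsewhere, the members were near these shares. Of the 20 calls of members in E2-KO and G12D/E2-KO together, 3 were left without WT T3, 7 without WT T1, 8 without WT T2, 10 without G12D/E2-KO T2 and 12 without E2-KO T1.

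For the mt- genes edgeR made no call across all cells in any mutant and DESeq2 1, higher in G12D/E2-KO. Their median changes were 0.23 (E2-KO), 0.07 (G12D) and 0.15 (G12D/E2-KO), with 2 or 3 of 13 at an unadjusted p under 0.05 in each, where 16.2%, 11.8% and 26.3% of all genes were. The summed mt- share at T1, T2 and T3 was 3.96, 3.72 and 3.84% for WT and 4.19, 4.62 and 4.54% for E2-KO. It was 3.86, 3.87 and 4.25% for G12D alone and 3.49, 4.62 and 5.75% for G12D/E2-KO. All E2-KO libraries were above all WT libraries, while those of G12D/E2-KO lay on both sides. With the 7 classes given equal weight the share was 3.79 ± 0.181% in WT and 4.11 ± 0.310% in E2-KO (SD, n = 3), and E2-KO T1 with 3.81% lay below WT T1 with 3.98%. Ezh2 deletion went with a share higher by 0.617 ± 0.636 percentage points (SD, 6 pairs of libraries matched for Nras allele and time point, 5 of 6 higher, exact two-sided sign-flip permutation p = 0.0938, smallest possible 0.0312). For active Nras the difference was 0.164 ± 0.633 percentage points (4 of 6 pairs higher, exact sign-flip permutation p = 0.594), and it ran from -0.0461 to 0.337 when 1 library was left out, below 0 without E2-KO T3 or G12D/E2-KO T3. E2-KO differed from WT by 0.607 percentage points (n = 3 against 3, exact permutation p = 0.1, the smallest this design allows). Within late GN, G12D/E2-KO was higher than WT for mt-Co1 (0.72, SE 0.18, adjusted p = 0.0203) and mt-Nd5 (0.67, SE 0.17, adjusted p = 0.0242), core subunits of complexes IV and I, in the class in which Ndufa4, Ndufa9 and Cox5a were lower. In time order the late GN markers took 42.7, 39.5 and 33.1% of late GN UMIs with both alleles, against 46.9, 44.7 and 48.7% in WT. The mt- share of late GN was 1.63, 2.39 and 3.15%, against 1.80, 1.67 and 1.48% in WT. The part of this make-up of the class in its calls was not tested. In EryP/early Ery mt-Atp6 was higher (0.35, SE 0.09, adjusted p = 0.0467).

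Around the members, 6 of 77 mitochondrial ribosomal protein genes were called lower by edgeR in G12D/E2-KO, with a median of -0.30, beside 1.99% of all genes. None was called in E2-KO or G12D, while DESeq2 called 17 lower in G12D/E2-KO and 1 in G12D. Of 42 assembly factors 2 were higher and 3 lower in G12D/E2-KO with a median of -0.16 (DESeq2 2 and 5), and 1, Lyrm7, was higher in E2-KO and in G12D. EdgeR called none of 17 genes of the TCA cycle in any mutant (DESeq2 1 lower in G12D/E2-KO, unadjusted p under 0.05 for 1, 1 and 3 in E2-KO, G12D and G12D/E2-KO). Neither tool called any of 15 regulators of mitochondrial biogenesis tested (1, 1 and 2 at an unadjusted p under 0.05 by edgeR). Among 17 glycolysis genes 3 were higher and 1 lower in G12D/E2-KO by edgeR (DESeq2 4 and 1) with a median of 0.30, beside the members' -0.16 and beside 3.72% higher and 1.99% lower of all genes. These were Slc2a1, the GLUT1 glucose transporter, Hk2 and Ldhb, higher, and Pfkm, lower. In G12D the glycolysis median was 0.36 with 14 of 17 positive, none called by edgeR, 7 at an unadjusted p under 0.05 and 1, Pgk1, higher by DESeq2. In E2-KO the median was -0.07 and 1, Ldhb, was higher by both tools. Differences between the genotypes in this list were not tested.

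Between T1 and T3, with genotype in the model, no member was called by edgeR (0.0% of all genes in either direction), 10 members (12.99%) had an unadjusted p under 0.05, all lower, while 6.44% of all genes were lower and 6.55% higher at that p, and DESeq2 also called none. Without E2-KO T3 these 10 members became 2, without G12D/E2-KO T1 1, without E2-KO T1 3 and without G12D/E2-KO T3 4. Of all genes 5.85%, 2.36%, 5.80% and 4.62% were lower at that p in these fits, in the same order. The median of the members was -0.12, with 18 of 77 positive, against 0.01 for all genes, and that of the mt- genes was 0.21. Within classes edgeR called no member for T3 against T1, and of the mt- genes only mt-Nd6 in GMP/early GN (1.01, SE 0.17, adjusted p = 0.0407). The lowest p belonged to 3 subunits of the matrix arm of complex I and 1 core protein of complex III: Ndufs8 (-0.42, SE 0.14), Ndufv2 (-0.38, SE 0.13), Ndufs4 (-0.33, SE 0.13) and Uqcrc1 (-0.39, SE 0.15), each at an adjusted p of 0.367. Ndufs8 had 131.7 to 161.7 CPM in the 4 libraries of T1 and 87.8 to 128.5 CPM in those of T3, without overlap, but 113.1 to 176.0 CPM at T2. E2-KO T3, with its low depth and high hemoglobin share, held the lowest T3 value of Ndufs8 (87.8 CPM), Ndufv2 (111.4 CPM), Ndufs4 (100.6 CPM) and Uqcrc1 (72.0 CPM). Without it Uqcrc1 changed by -0.24, and Ndufs4 changed by -0.20 without G12D/E2-KO T1. Of the 4 libraries of T3, 3 were the ones with Xist, so that animal sex moved with time, and both cannot be told apart in those libraries. No G12D/E2-KO library carried Xist, so that sex was also unbalanced between this genotype and the others.

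Between T2 and T3 edgeR called no gene (0.0% in either direction), and 20 of 77 members (26.0%) had an unadjusted p under 0.05, all lower, with a median of -0.17, where 6.30% of all genes were lower and 4.90% higher at that p. DESeq2 called 2 members, Ndufa9 (-0.66, adjusted p = 0.0120) and Uqcrc1 (-0.70, adjusted p = 0.0119), both lower at T3, where it called 0.274% of all genes and, among the mt- genes, 2 of 13 higher (mt-Nd4l and mt-Nd6). In E2-KO Ndufa9 went from 60.8 CPM at T2 to 24.9 CPM at T3 and Uqcrc1 from 184.7 to 72.0 CPM, and the T3 values of that library were the lowest of the 12. The 20 members became 13 without E2-KO T3 (edgeR), where 3.98% of all genes were lower. Between T1 and T2 edgeR called no member, 3 were higher at an unadjusted p under 0.05 (3.90%, against 1.96% of all genes), and the median was 0.06. These 3 became 0 without G12D T1 or G12D T2, where 0.414% and 0.631% of all genes were higher. They became 5 without G12D/E2-KO T3, where 2.65% were.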

How the data were processed

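The authors made 10x Genomics 3′ single-cell libraries of c-Kit+ bone marrow cells, and the deposited tables hold raw UMI counts per cell and gene for each of the 12 libraries, made with Cell Ranger against mm10 and after the authors had removed cells with over 10% mt- UMIs and doublets called by Scrublet. The gene annotation release is not given in the sources used here. Each molecule is counted once, so a level is a share of captured 3′ ends, and library sizes of 12.6 to 23.6 (×1000000 UMIs) set the precision of low genes. Cells found in 2 tables were kept in 1 of them.

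Cells were assigned to classes from log values per 10000 UMIs with marker z scores limited to 3: the best list needed a mean of at least 0.5, 2 detected markers and a lead of 0.25. Counts were summed per library, or per library and class where a class had 20 or more cells in each library. They were tested with edgeR 4.0.16 (TMM, filterByExpr, robust quasi-likelihood fit, limma 3.58.1, R 4.3.3), with genotype and time point for genotype comparisons (6 residual degrees of freedom over all cells) and with library as a block for steps between classes. P-values were adjusted by Benjamini-Hochberg over all genes tested, at a threshold of 0.05. The summed mt- share was tested by exact permutation (scipy 1.17.1, Python 3.11.15). The procedure was tested on simulated data.

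Genes were named by a rule: per comparison over all cells the 4 members with the lowest p and every member called, the 2 highest members of each complex, tissue forms, per step the 3 largest changes, and the 5 members with the widest range over classes. Members called within a class and counts of 5 or fewer are also named. The members, lists and tests were chosen with earlier results of these data known. Alternatives were DESeq2 1.42.0, its size factors, other filters and denominators, gate margins of 0 and 0.5, the tables as deposited, Xist state as a covariate, no block, fewer genotypes and each library left out. Leaving out libraries within classes, leaving late GN markers out of the denominator, dividing the DC class by genotype and counts at an unadjusted p without each library were added after the data had been seen.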

Additional observations from a re-analysis of the deposited data

Results flagged for a closer look

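Among the 4 libraries of a time point, 1 library lay apart from the other 3 in 9 of 90 groups tested by the ratio of its gap to the whole range, where chance gives about 1 in 20. The genes were named for differences between these libraries and genes of 1 library are not independent, so that this rate is no fair comparison. At T1, E2-KO was the highest for Sdha (96.4 CPM, the others 75.0 to 78.5 CPM) and for Cox4i1 (1567 CPM, the others 1242 to 1287 CPM). At T2, E2-KO was the highest for Atp5g2 (918.9 CPM, the others 739.3 to 763.5 CPM). At T3, E2-KO was the highest for Uqcrh (1038 CPM, the others 716.7 to 758.4 CPM) and Atp5l (1113 CPM, the others 886.5 to 910.3 CPM), and the lowest for Atp5g2 (581.5 CPM, the others 741.3 to 770.2 CPM). The E2-KO T3 library also had the highest hemoglobin share (9.31%), and the gene table holds pseudogene symbols of Uqcrh and Atp5l, with which their counts are uncertain. At T2, G12D/E2-KO was the lowest for Uqcrc1 (113.7 CPM, the others 177.9 to 184.9 CPM) and Sdhb (125.2 CPM, the others 179.0 to 189.9 CPM), and the highest for Cox6a2 (13.6 CPM, the others 3.59 to 5.24 CPM).

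Cox5a, a subunit of complex IV, moved in opposite directions on the 2 Nras backgrounds: E2-KO exceeded WT by 57.9 CPM on average and at each of the 3 time points, while G12D/E2-KO differed from G12D by -49.0 CPM and was lower at each. The difference was not tested on this CPM scale, and the interaction of the model was -0.34 with an adjusted p of 1.0 (edgeR quasi-likelihood test). Without G12D T3 it was -0.20. Cox5a was named for its low p in this same interaction, so that its opposite directions are no independent observation.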

How the results depend on the processing

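Of the main results, 346 of their alternative values kept direction and side of the threshold or stayed within 1.5 times of the count, 33 moved and 2 reversed. The calls of Uqcrq and Ndufs3 are not part of this tally. Uqcrq lost its call in 5 settings for E2-KO and in 9 for G12D/E2-KO. Ndufs3 lost its call in G12D/E2-KO in 6 settings. Over all cells the E2-KO count of 1 member became 0 to 1 when a library was left out. The G12D/E2-KO count of 2 members was 8 with DESeq2, 1 with no replicate block (Uqcrq), 0 with only the 2 genotypes and 0 to 6 when a library was left out. The numbers 1 to 3 are the time points themselves, and the main fit holds them as the block. With Xist state as a covariate the T3 term rests on G12D/E2-KO T3 alone, because 3 of the 4 libraries of T3 carry Xist. The members this fit singled out for T3 against T1, Cox6a2 and Ndufa13, changed by -4.40 and -0.78. The 20 calls within classes became 3 to 27 when a library was left out.

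Between classes, RLE size factors gave 7 members lower in place of 3 from HSC/MPP to GMP/early GN and 8 in place of 4 from HSC/MPP to EryP/early Ery. WT libraries alone, with fewer samples, gave 25 lower in the step to late GN, 16 higher and 3 lower in the step to ProMo, and 15 higher in the step to late Ery. No replicate block gave 18 higher and 5 lower in the step to ProMo, and a margin of 0.5 gave 15 higher in the step to late Ery. The G12D effect on the mt- share of 0.164 percentage points was -0.0461 to 0.337 when a library was left out, and it reversed without E2-KO T3 or G12D/E2-KO T3. The log2 ratio of summed member CPM of E2-KO over WT was 0.27 without hemoglobin, mt- and ribosomal protein genes in the denominator, against 0.14. Where no reason is named, the cause was not tested. Sdhd in G12D/E2-KO passed the threshold with DESeq2, with Xist state and without E2-KO T3, G12D T2 or G12D/E2-KO T3 (adjusted p 0.0163 to 0.0474). With 1 library for each genotype and time point, a full interaction of genotype and time leaves no libraries to measure spread. Whether a genotype effect differs between time points was not tested. Depth limits Cox7a1, with no UMI in at least 1 library in 4 of the 7 classes, and Cox6a2 in 4 of the 6 classes other than HSC/MPP.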
